A study of Mus musculus with 6 samples.

Results

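The genes described here are the nuclear genes that encode subunits of the mitochondrial respiratory chain complexes I to IV and of ATP synthase, complex V. They were taken by name, as the protein-coding genes whose mouse symbols begin with Ndufa, Ndufb, Ndufc, Ndufs, Ndufv, Sdh, Uqcr, Cox4, Cox5, Cox6, Cox7, Cox8 or Atp5, with a count of at least 10 in at least 3 of the 6 libraries. This gave 92 of the 36528 gene IDs listed. Of these, 79 are subunits: 37 of complex I, 4 of complex II, 8 of complex III, 13 of complex IV and 17 of complex V. Cyc1, a nuclear subunit of complex III, lies outside the prefixes and is not among them. The same prefixes bring in 12 genes for assembly factors (8 Ndufaf genes and 4 Sdhaf genes) and Cox7a2l, which encodes a protein that joins complexes into supercomplexes, and these were kept apart from the subunits.

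The study compared 3 libraries labelled IRF2_KO with 3 labelled Parental, all from mouse bone marrow cells of a HOXB-8 line, a name commonly used for myeloid progenitors kept dividing by a Hoxb8 transgene. The extraction notes call the cells iMACs and give the lines as Irf2 gRNA2 knockout and control Luc gRNA, so each group rests on a single guide RNA. IRF2 belongs to the interferon regulatory factors, a family of DNA-binding proteins. Whether the lines are clones, and whether the libraries of a group are separate cultures, is not given in the sources used here. The p-values therefore set the difference between the groups against the spread of libraries within a group, and that spread can be technical.

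Complexes I and II pass electrons from NADH and succinate to coenzyme Q, complex III passes them on to cytochrome c, and complex IV passes them to oxygen. The proton gradient built by complexes I, III and IV drives ATP synthesis by complex V. Most subunits are encoded in the nucleus and imported, a few are made inside the mitochondrion, and assembly factors put the pieces together without staying in the finished complex.

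The total count was 29994755, 29070160 and 34051219 in the IRF2_KO libraries and 39011542, 33422590 and 39925038 in the Parental libraries. Levels are given as CPM, counts scaled to the total of the library, after TMM scaling. By library total alone, without TMM scaling, 3 counts corresponded to 0.0751 to 0.103 CPM. Irf2 transcript stood at 40.3, 37.0 and 40.1 CPM in IRF2_KO and at 41.1, 42.4 and 41.1 CPM in Parental libraries, a difference that did not pass the test (log2 fold change -0.08 ± 0.05 SE, edgeR adjusted p = 0.209), so the transcript level gives no check of the labels. Gsdmd, a gene that IRF2 is known to activate and that was named after its values were seen, had 1.95, 2.48 and 2.32 CPM in IRF2_KO and 69.3, 74.9 and 79.5 CPM in Parental libraries (log2 fold change -5.05), the direction that the labels give. All 10 of 15 macrophage markers that could be tested rose, with summed levels of 1687 to 1692 CPM in IRF2_KO and 571 to 581 CPM in Parental libraries, while C1qb was at 0 in every library. All 4 tested progenitor markers of 5 fell (summed 482 to 499 CPM in IRF2_KO, 751 to 754 CPM in Parental), and the fifth, Cd34, reached at most 0.0697 CPM. Of 10 neutrophil markers 3 rose and 3 fell (summed 5452 to 6469 CPM in IRF2_KO, 7670.1 to 8353 CPM in Parental). Their log2 fold changes ran from -1.69 for Elane, for neutrophil elastase, to 1.38, with a median of 0.06. Of 6 dendritic cell markers 4 were tested, of which 3 rose and Flt3, also on the progenitor list, fell (summed 50.3 to 56.6 CPM in IRF2_KO, 34.0 to 35.9 CPM in Parental), while Siglech was at 0 throughout. Markers of T and B lymphocytes summed to at most 0.119 CPM, and neither those of erythroid cells nor those of megakaryocytes summed to more than 1.19 CPM. These groups of markers moved between the same libraries as every result below, and their part in those results was not tested.

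For 78 of the 92 genes the RefSeq table (GRCm38.p6) holds the stretch from 250 bases before to 50 after the annotated start. The next 4 are shown because they belong to the gene with the largest fall among the 92 (Ndufaf4), the gene with the largest rise (Ndufv3), the catalytic complex II subunit Sdha, whose level did not pass the test and which holds 3 copies of the motif found most often here, and Ndufa9, whose promoter holds both forms of the IRF letters. Capitals mark matches to any motif searched, on either strand.
Ndufaf4 (chr4:24897833-24898132, plus strand): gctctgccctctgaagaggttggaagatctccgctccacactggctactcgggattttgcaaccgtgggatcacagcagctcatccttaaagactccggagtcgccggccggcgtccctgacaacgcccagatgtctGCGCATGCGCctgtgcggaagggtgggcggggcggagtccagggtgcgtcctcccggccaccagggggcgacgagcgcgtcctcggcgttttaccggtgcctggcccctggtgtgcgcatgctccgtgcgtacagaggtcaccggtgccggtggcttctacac
Ndufv3 (chr17:31519865-31520164, plus strand): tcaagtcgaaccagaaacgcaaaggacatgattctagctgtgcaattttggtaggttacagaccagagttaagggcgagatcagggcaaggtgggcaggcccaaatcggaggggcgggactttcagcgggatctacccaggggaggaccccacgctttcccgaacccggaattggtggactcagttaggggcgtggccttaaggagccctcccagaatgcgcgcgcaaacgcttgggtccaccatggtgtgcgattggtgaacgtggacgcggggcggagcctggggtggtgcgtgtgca
Sdha (chr13:74350191-74350490, minus strand): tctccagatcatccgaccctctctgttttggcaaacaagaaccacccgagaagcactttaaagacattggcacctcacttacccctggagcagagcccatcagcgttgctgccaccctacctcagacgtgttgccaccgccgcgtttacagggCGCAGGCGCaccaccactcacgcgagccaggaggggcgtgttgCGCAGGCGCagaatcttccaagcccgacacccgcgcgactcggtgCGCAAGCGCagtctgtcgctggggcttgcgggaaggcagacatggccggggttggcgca
Ndufa9 (chr6:126849095-126849394, minus strand): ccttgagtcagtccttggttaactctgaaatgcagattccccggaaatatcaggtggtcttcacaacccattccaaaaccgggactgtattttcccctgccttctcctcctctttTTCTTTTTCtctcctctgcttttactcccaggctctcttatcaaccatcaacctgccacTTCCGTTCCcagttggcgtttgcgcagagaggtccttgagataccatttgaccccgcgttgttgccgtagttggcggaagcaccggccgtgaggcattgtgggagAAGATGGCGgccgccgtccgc

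The capitals in the Ndufaf4 and Sdha promoters are the letters GCGCNTGCG, a core of the site bound by NRF1, a transcription factor known for its sites in respiratory chain genes. They stood in 26 of the 78 promoters (33.3%), against 14.9% of the 9204 promoters of protein-coding genes tested. Among subunits 22 of 66 held them, and among assembly factors 4 of 11. The YY1 letters AAGATGGCG, in capitals near the end of the Ndufa9 promoter, were found in 7 promoters (8.97%, against 3.49% of the tested genes), in each case downstream of the start. The ETS letters CCGGAAGT stood in 6.41% of the members' promoters and 9.07% of those of tested genes. For interferon regulatory factors, GAAANNGAA was found in 7 promoters (8.97%, against 7.21%), and GGAANNGAA, for a joint ETS and IRF site, in 4 (5.13%, against 7.24%). The first and second stretches of capitals in the Ndufa9 promoter are matches to these, read on the opposite strand. None of the searched letters was found in the Ndufv3 window. All motifs were read on both strands, an NRF1 match can overlap another on the opposite strand, and a match is a description of letters, not a binding site.

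Of the 92 genes, 6 rose and 7 fell in IRF2_KO cells (14.1% called). Of the 79 subunit genes, 5 rose and 1 fell in IRF2_KO cells, and 73 did not pass the test (edgeR quasi-likelihood test, Benjamini-Hochberg adjusted over all 13353 genes tested, threshold 0.05). The 6 called subunits are 7.59% of the 79, while 47.2% of all genes tested were called. The subunits' log2 fold changes (IRF2_KO over Parental) lay between -0.22 and 0.31, with a median of -0.02 beside -0.01 for all genes tested, and the median size of change was 0.05 beside 0.18. For 63 of 79 subunits the 95% interval of the fold lay within 1.2-fold in either direction, 79.7% of them against 34.4% of all genes. Abundant genes are measured more precisely, and among genes averaging 10 CPM or more, 49.1% had such an interval and 63 of 68 subunits did (92.6%). At that level 52.5% of all genes were called (24.1% higher and 28.4% lower) and 8.82% of the subunits. Groups did not overlap for 9 of 79 subunits, 11.4% of them against 54.0% of all genes tested. Against a minimum change of 1.5-fold (glmTreat in edgeR), 0 of the 92 genes were called. That follows from the size of the changes, which lay between -0.34 and 0.31 on the log2 scale. With library size alone as the scale, which moved the median of all genes to -0.04, 4 members were called higher and 12 lower. There were 10 higher and 5 lower without IRF2_KO library 1, and 4 higher and 14 lower without IRF2_KO library 2. Without Parental library 2 there were 3 higher and 8 lower. The share of all genes called in each of these alternatives is not given here, so their counts have no background beside them. In bulk samples, a change in the mixture of cells and a change in RNA per cell cannot be told apart.

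**Figure D1:**
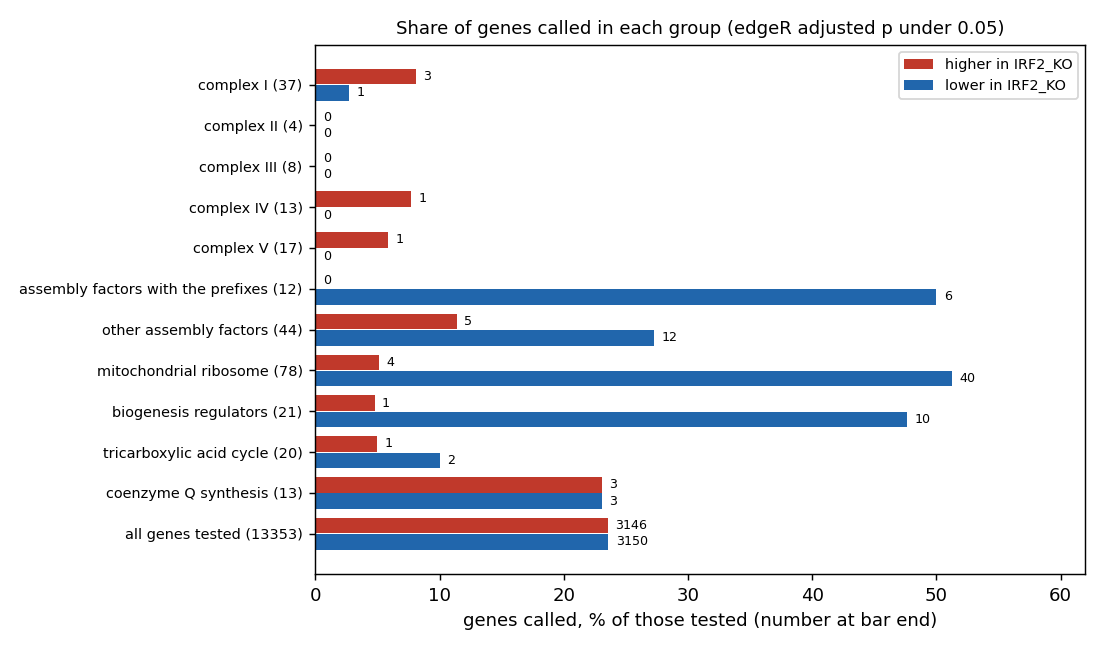
Share of genes called higher or lower (percent of genes tested) for each group of genes, beside all genes tested. Numbers of genes stand at the bar ends. Among subunits with the name prefixes, complexes II and III have 0 calls and complex I has 3 higher and 1 lower of 37. The complex III subunit Cyc1, outside the prefixes, is not in the complex III bars. The tricarboxylic acid cycle bars count Mpc2, for a pyruvate carrier subunit, and the coenzyme Q bars count Coq10a, for a coenzyme Q-binding protein. Of all genes tested, 23.6% are called in each direction.

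The summed level of the 92 genes was 12299, 13304 and 12781 CPM in IRF2_KO and 12757, 12798 and 13190 CPM in Parental libraries. Expressed as a share of scaled counts, that is 1.23%, 1.33% and 1.28% in IRF2_KO against 1.28%, 1.28% and 1.32% in Parental. The groups overlapped, and the widest spread was inside the IRF2_KO group. IRF2_KO library 1 held the lowest value of its group for 60 of 79 subunits (75.9%, against 38.6% of all genes), and library 2 the highest for 59 (74.7%, against 37.0%). The median subunit lay 0.066 below its Parental mean on the log2 scale in IRF2_KO library 1, 0.059 above it in library 2 and 0.01 below it in library 3. Most subunits thus shared this order of the IRF2_KO libraries, and counts of calls are given below without those libraries that change them.

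**Figure D2:**
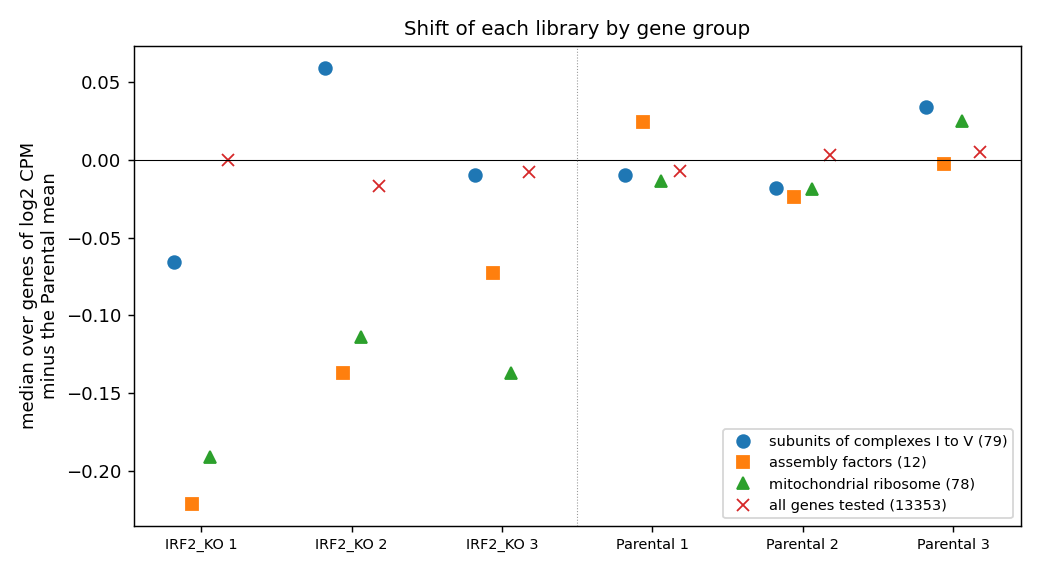
Median over the genes of each group of log2 CPM minus the Parental mean (vertical axis), for each IRF2_KO library and, to their right, each Parental library. Subunits in IRF2_KO library 1 sit lowest and in library 2 highest, while assembly factors and mitochondrial ribosome genes lie below 0 in all 3 IRF2_KO libraries.

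Levels between genes were compared per length with the deposited RPKM values, as means over the 6 libraries unless a group is named. The median subunit stood at 105 RPKM, beside 8.96 RPKM for all genes tested, and 41 of the members were above 100 RPKM. By complex, the median was 76.1 RPKM for complex I, 125 for complex II, 175 for complex III, 199 for complex IV and 148 for complex V. Assembly factors were lower, at 17.9 RPKM with a range of 5.08 to 37.9. Within a complex the levels spread widely, in complex I between 4.32 and 222 RPKM with Ndufs5 lowest and Ndufb1 highest. Only uniquely aligned reads were counted, and 11 of 91 matched members share at least 10% of their 50-base stretches with other annotated loci. Of the 12 members under 10 CPM, 9 share at least 5%, against 13 of 80 at or above it. Ndufb1, among the 80, was not matched, and its sharing is unknown. The levels of Atp5g2, Uqcrb, Cox7c, Ndufs5 and other such genes are therefore uncertain.

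**Figure D3:**
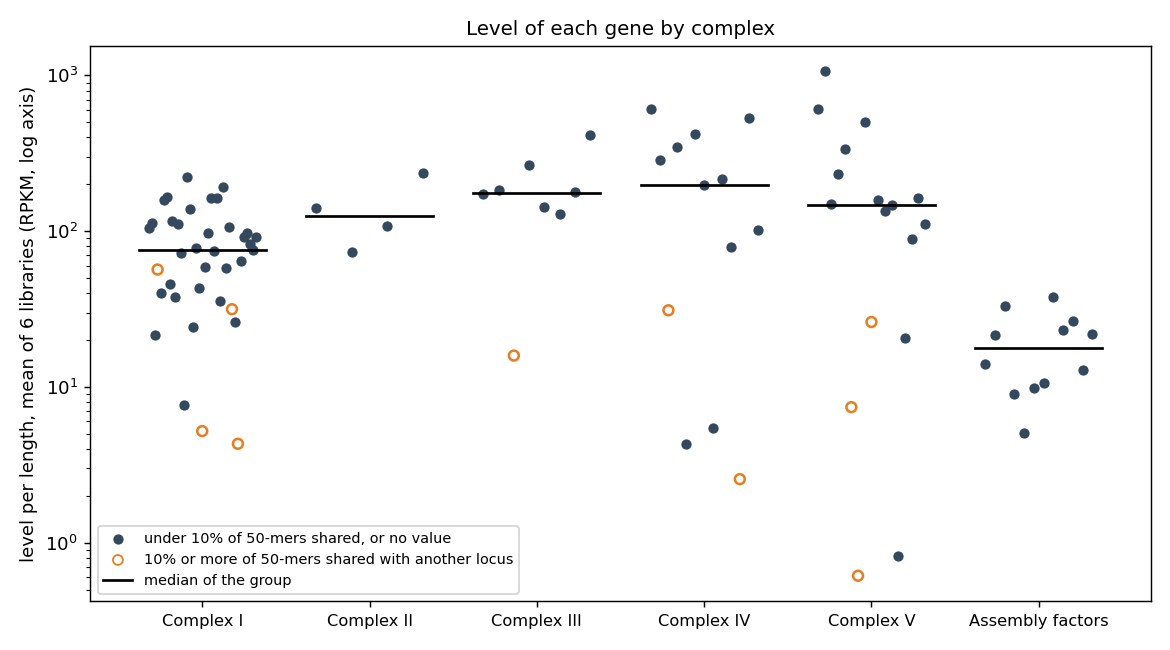
Level of each member in the deposited RPKM (log axis), by complex, as the mean of 6 libraries; open circles share 10% or more of their 50-base stretches with another locus and bars are medians. Complexes III and IV have the highest medians, 175 and 199 RPKM, and assembly factors the lowest, 17.9 RPKM.

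Complex I is the NADH dehydrogenase, and 3 of its 37 subunits rose and 1 fell. The 7 nuclear core subunits, which hold the flavin and the iron-sulfur centres, had 0 calls, and all 7 intervals lay within 1.2-fold. The 4 calls were among the 30 accessory subunits, which surround the core. Subunits encoded in the mitochondrion, of which ND1 fell and ND6 rose, were counted apart and are given below. The complex I median log2 fold change was -0.03, and its summed level was 2770.4, 3022 and 2879 CPM in IRF2_KO and 2884, 2872 and 2954 CPM in Parental libraries.

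Among the core subunits, Ndufs1, which carries several iron-sulfur clusters, had 185, 184 and 182 CPM in IRF2_KO and 185, 173 and 178 CPM in Parental libraries. The groups overlapped, with a log2 fold change of 0.04 (interval -0.05 to 0.13). Ndufv1, the flavin-binding subunit, had 120, 141 and 131 CPM in IRF2_KO and 137, 141 and 148 CPM in Parental libraries. Its groups overlapped too, and its change was the furthest from 0 among the nuclear core subunits (log2 fold change -0.12, interval -0.24 to -0.01, edgeR adjusted p = 0.0779). Both core genes were chosen after their values were seen. So was Ndufa9, whose promoter is shown above and which had 112, 116 and 117 CPM in IRF2_KO and 109, 116 and 112 CPM in Parental libraries (log2 fold change 0.04, interval -0.06 to 0.13), with overlapping groups.

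Ndufv3, an accessory subunit of the NADH-oxidising module (chromosome 17, 31520115 to 31531326, GRCm38), had 151, 175 and 167 CPM in IRF2_KO and 129.6, 134 and 136 CPM in Parental libraries. Every IRF2_KO library was above every Parental one. The log2 fold change of 0.31 (SE 0.05, 95% interval 0.20 to 0.41, edgeR adjusted p = 8.44e-05) was the highest of the 92 genes. Ndufb1, an accessory subunit of the membrane arm, had 87.5, 80.6 and 77.5 CPM in IRF2_KO and 75.3, 64.6 and 67.5 CPM in Parental libraries. Its groups did not overlap either, and the change was 0.24 on the log2 scale (SE 0.06, edgeR adjusted p = 0.00272). Ndufa6, an accessory subunit of the LYR protein family, had 77.5, 82.7 and 78.6 CPM in IRF2_KO and 73.5, 70.5 and 73.2 CPM in Parental libraries. The groups stood apart by a small margin (log2 fold change 0.14, SE 0.05, edgeR adjusted p = 0.0222), and the call was lost when library size alone set the scale (edgeR adjusted p = 0.0693), with no low-count filter (edgeR adjusted p = 0.0553) and without IRF2_KO library 2 or 3 or Parental library 2 or 3 (edgeR adjusted p between 0.054 and 0.105).

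Ndufa8, an accessory subunit of the membrane arm with twin cysteine motifs (chromosome 2, 36036324 to 36049338), was the subunit that fell. It had 71.7, 81.7 and 80.0 CPM in IRF2_KO libraries and 87.1, 90.2 and 94.1 CPM in Parental libraries. Every IRF2_KO value lay under every Parental one, with a log2 fold change of -0.22 (SE 0.05, 95% interval -0.33 to -0.11, edgeR adjusted p = 0.00265). Ndufb3 and Ndufb8, chosen after their values were seen, had groups that did not overlap but missed the threshold, with log2 fold changes of 0.15 (edgeR adjusted p = 0.0516) and -0.10 (edgeR adjusted p = 0.0745). Complex I calls rested in part on the libraries named above. Without IRF2_KO library 2 there were 7 lower subunits, without Parental library 1 or 2 there were 2, and without IRF2_KO library 1 there were 5 higher ones. No share of all genes called in those fits is given here.

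**Figure D4:**
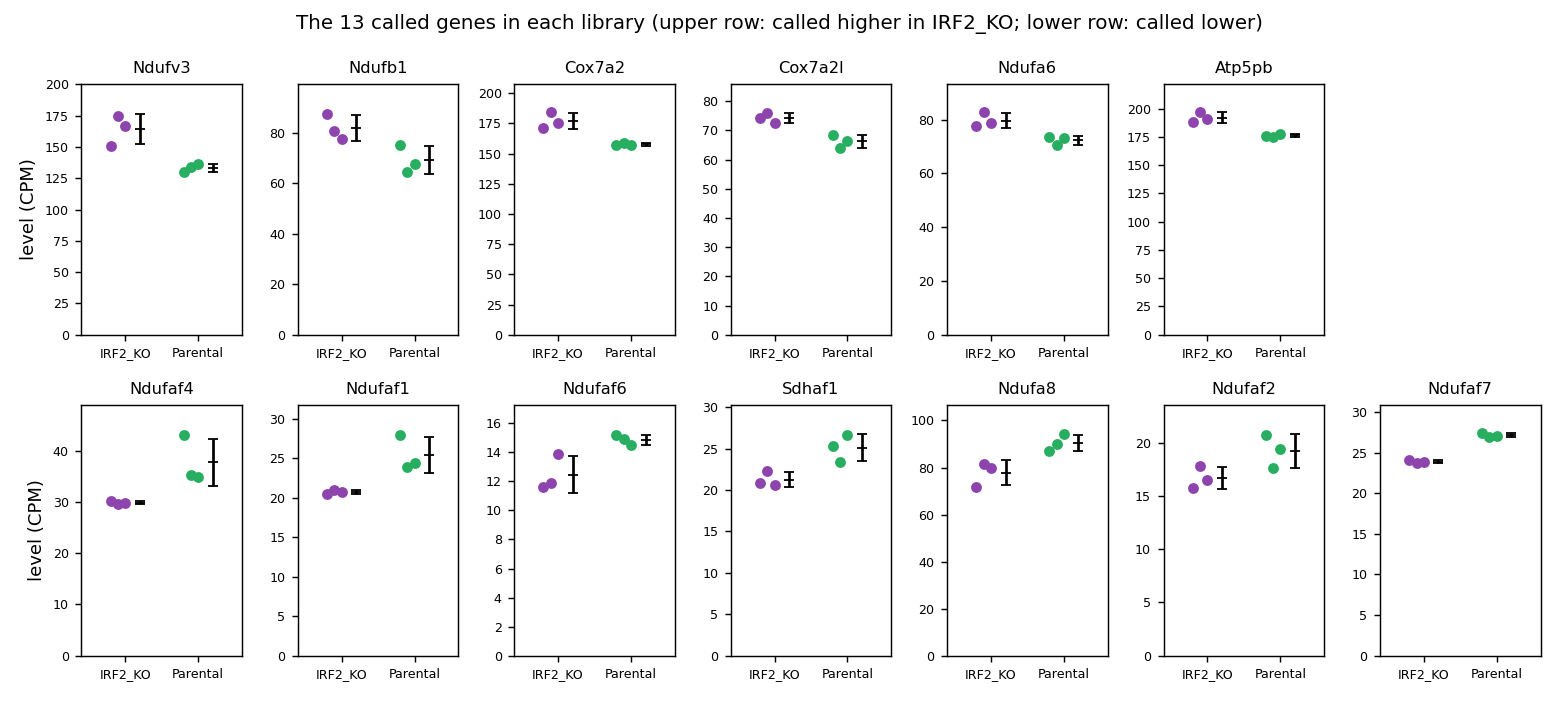
Level (CPM) in each library of the called genes, with IRF2_KO left of Parental; bars give the mean ± SD (n = 3 each), and the upper panels hold genes called higher, the lower panels genes called lower. In the called subunits the groups do not overlap, and in Ndufaf2 they do.

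Complex II, succinate dehydrogenase, also works in the tricarboxylic acid cycle, and none of its 4 subunits changed past the threshold. Sdha, the flavin-bearing catalytic subunit, had 419, 426 and 422 CPM in IRF2_KO and 421, 401 and 411 CPM in Parental libraries. Its interval on the log2 scale ran from -0.04 to 0.12 around 0.04. Sdhb, the iron-sulfur subunit, had 76.6, 85.3 and 82.7 CPM in IRF2_KO and 78.1, 82.5 and 83.1 CPM in Parental libraries (log2 fold change 0.01, interval -0.10 to 0.11). For both genes the groups overlapped. The membrane anchors were Sdhc, at 135, 149 and 141 CPM in IRF2_KO and 131, 130 and 141 CPM in Parental libraries (0.08, interval -0.02 to 0.18), and Sdhd, at 301, 323 and 311 CPM in IRF2_KO and 312, 308 and 319 CPM in Parental libraries (-0.01, interval -0.09 to 0.08). Again the groups overlapped, and all 4 intervals lay within 1.2-fold. Without IRF2_KO library 1, the lowest of its group for most subunits, Sdhc was called (0.12, edgeR adjusted p = 0.034).

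Complex III, the coenzyme Q to cytochrome c reductase, likewise had 0 calls among 8 nuclear subunits of the Uqcr family (7 of 8 intervals within 1.2-fold, median -0.03, range -0.10 to 0.09). Uqcrfs1, the Rieske iron-sulfur protein, named after its values were seen, had the lowest change of the 8. It had 159, 181 and 164 CPM in IRF2_KO and 180.2, 179.6 and 179.5 CPM in Parental libraries. IRF2_KO libraries 1 and 3 were below the Parental ones and library 2 was above them (log2 fold change -0.10, edgeR adjusted p = 0.106). The most abundant transcript of the complex was Uqcrq, at 420 RPKM in IRF2_KO and 407 RPKM in Parental. Uqcrb was lowest, at 16.5 RPKM in IRF2_KO and 15.3 RPKM in Parental, and 25.4% of its 50-base stretches occur elsewhere. Without IRF2_KO library 2, 1 of the 8 subunits was called lower. Cyc1, a nuclear complex III subunit outside the Uqcr family, was called lower with all libraries (log2 fold change -0.15) and is given below.

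Complex IV, cytochrome c oxidase, had 1 call among 13 subunits (median log2 fold change 0.05, range -0.05 to 0.16). The change was above 0 for 11 of the 13 and below it for 2, beside 6403 of 13353 genes tested above 0. The 11 include Cox7b at 0.00 and the low-count Cox7c (interval -0.35 to 0.53), and subunits shared the order of the libraries, so these signs are not independent. The subunit that rose was Cox7a2, the widely expressed isoform of subunit VIIa, at 171, 184 and 175 CPM in IRF2_KO and 157, 159 and 157 CPM in Parental libraries. All 3 IRF2_KO values exceeded all Parental ones (log2 fold change 0.16, SE 0.04, edgeR adjusted p = 0.00464). Cox7a2 overlaps Tmem30a and a predicted gene on chromosome 9, and whether strand was used in counting is not given, so reads of these genes may be mixed. Without IRF2_KO library 1, Cox8a was also called (0.14, edgeR adjusted p = 0.00995), while with all libraries its change was 0.08. Cox8a had 282, 329 and 302 CPM in IRF2_KO and 274, 290.1 and 299 CPM in Parental libraries. Its groups overlapped. Cox6c, named after its values were seen, had 105, 108 and 105 CPM in IRF2_KO and 98.4, 99.5 and 100.3 CPM in Parental libraries, groups that did not overlap but whose difference missed the threshold (0.09, edgeR adjusted p = 0.0942).

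Several complex IV subunits come as tissue isoforms, and these cells carried the widely expressed forms. Cox6a1 stood at 351 ± 30.3 RPKM in IRF2_KO and 342 ± 15.3 RPKM in Parental libraries (SD, n = 3 each), while the heart and muscle form Cox6a2 stood at 4.51 ± 0.864 RPKM in IRF2_KO and 4.12 ± 0.709 RPKM in Parental. Likewise Cox7a2 had 229 ± 9.55 RPKM in IRF2_KO and 204 ± 1.60 in Parental, and the muscle form Cox7a1 had 5.59 ± 1.37 in IRF2_KO and 5.26 ± 0.577 in Parental. Cox4i1 was the most abundant complex IV transcript (621 RPKM in IRF2_KO, 601 in Parental), and its partner Cox4i2, an isoform known from lung, was under the count minimum, with 6, 8 and 5 counts in IRF2_KO and 8, 5 and 5 in Parental. Cox6b2 had 3, 2 and 0 counts in IRF2_KO and 0, 1 and 0 in Parental, and Cox7b2, Cox8b and Cox8c were at 0 in all 6 libraries. Ndufa4, named as a complex I subunit but a part of complex IV, had 142, 153 and 154 CPM in IRF2_KO and 158, 147 and 158 CPM in Parental, and its relative Ndufa4l2 had 1, 4 and 1 counts in IRF2_KO and 3, 5 and 3 in Parental. The remaining members of the name families below the minimum were the copies Ndufb4b (8, 1 and 4 counts in IRF2_KO, 14, 9 and 11 in Parental) and Ndufb4c (5, 10 and 4 in IRF2_KO, 9, 10 and 7 in Parental). The lowest member inside the rule was Atp5g2, with 17, 9 and 16 counts in IRF2_KO and 12, 17 and 23 in Parental.

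Complex V had the most abundant transcript of all 92, Atp5b for the catalytic beta subunit, at 1057 RPKM in IRF2_KO and 1073 RPKM in Parental. It had 1967, 2092 and 2038 CPM in IRF2_KO and 2026, 2071 and 2125 CPM in Parental libraries, with overlapping groups and a log2 fold change of -0.03 (interval -0.12 to 0.06). The summed level of the 17 subunits was 5057, 5414 and 5214 CPM in IRF2_KO and 5277, 5309 and 5463 CPM in Parental libraries. Only Atp5pb, a subunit of the peripheral stalk, was called, at 188, 197 and 191 CPM in IRF2_KO and 176, 175 and 178 CPM in Parental libraries. Its IRF2_KO values all lay above its Parental values, but the change was small (log2 fold change 0.12, SE 0.04, edgeR adjusted p = 0.0215) and was not called with library size alone (edgeR adjusted p = 0.0751), with no low-count filter (edgeR adjusted p = 0.0716) or without IRF2_KO library 2 or 3 or Parental library 2 or 3 (edgeR adjusted p between 0.0585 and 0.0798). Atp5a1, the alpha subunit, named after its values were seen, had 1435, 1533 and 1473 CPM in IRF2_KO and 1531, 1545 and 1583 CPM in Parental libraries. Only IRF2_KO library 2 reached into the Parental range (log2 fold change -0.07, interval -0.15 to 0.02). The c-ring, the rotating part in the membrane, is encoded by 3 genes that give the same mature protein: Atp5g3 carried nearly all of the level (492 ± 21.3 RPKM in IRF2_KO, 514 ± 15.5 in Parental, SD, n = 3 each), beside 7.22 ± 1.90 in IRF2_KO and 7.61 ± 1.34 in Parental for Atp5g1. Atp5g2 was lowest of all members at 0.611 ± 0.172 RPKM in IRF2_KO and 0.616 ± 0.187 in Parental. These 2 low genes share 11.1% and 36.7% of their 50-base stretches with other loci. For Atp5g2 and Atp5l the intervals reached beyond 1.5-fold, so they include both no change and a change of that size.

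**Figure D5:**
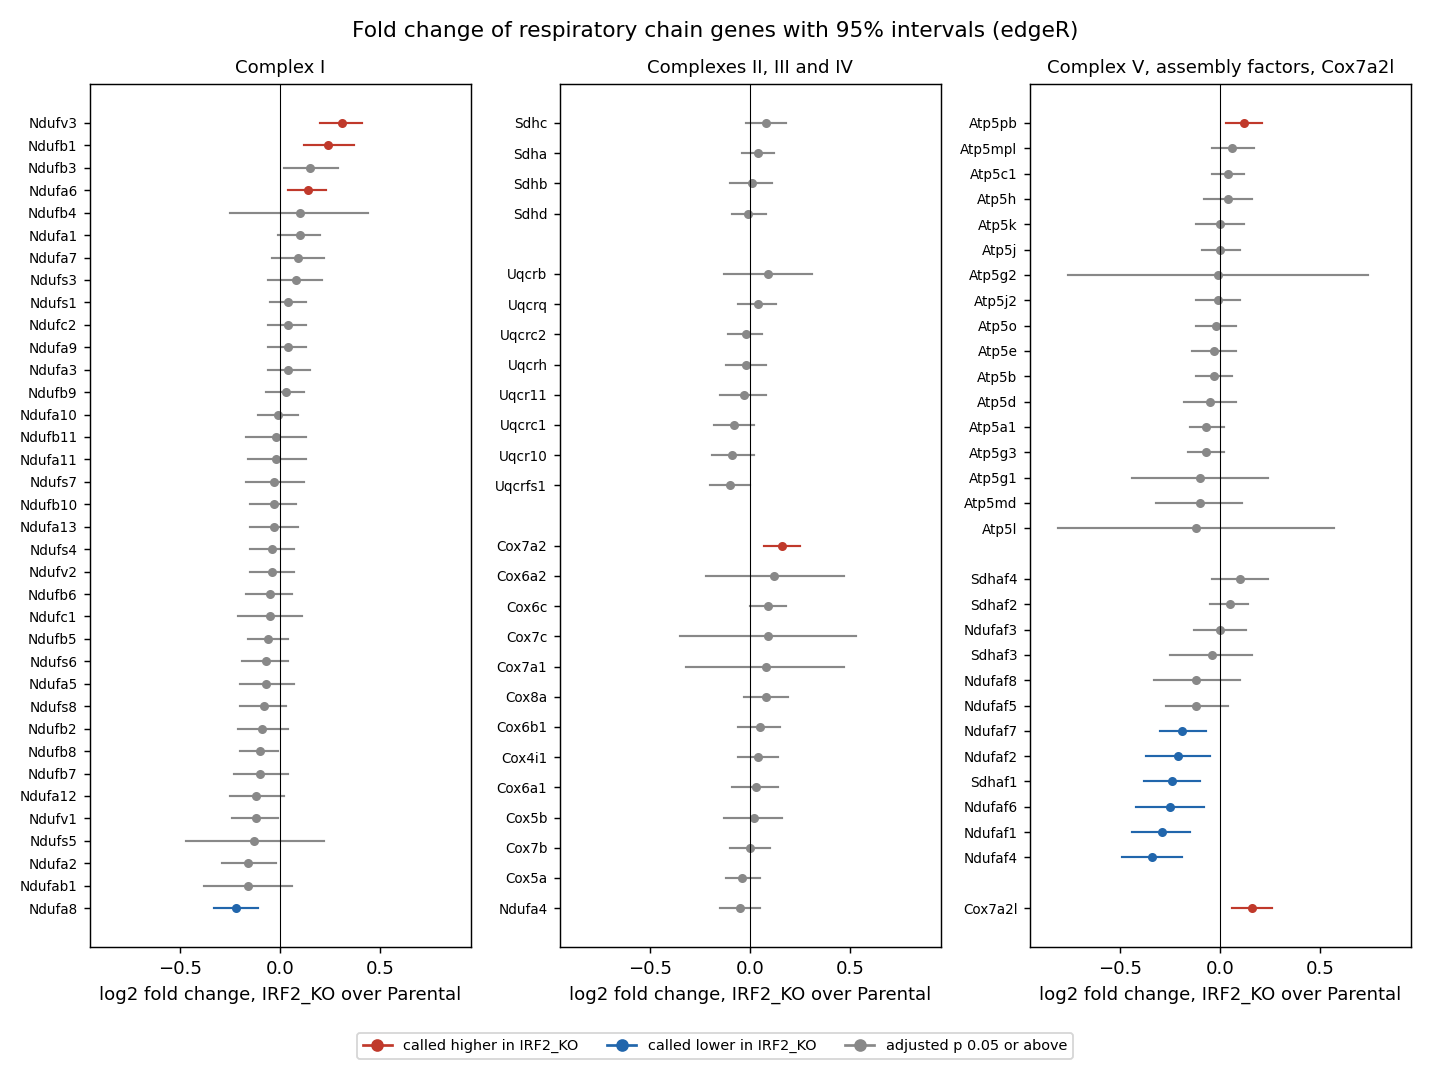
Log2 fold change (IRF2_KO over Parental) of the members, 1 left out, with its 95% interval, by complex, with called genes marked. Subunits lie close to 0 apart from Ndufv3 at 0.31, Ndufb1 at 0.24 and Ndufa8 at -0.22, and most assembly factors lie below 0.

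Of the assembly factors, 6 of 12 fell and 0 rose. Of all genes tested 47.2% were called, and 52.5% of those averaging 10 CPM or more. The total of 6 calls among 12 is thus close to the background, while 23.6% and 28.4% were called lower. Groups did not overlap for 6 of 12 factors, beside 54.0% of all genes tested. The log2 fold change was negative for 10 of 12 (median -0.15, range -0.34 to 0.10). All 8 of the complex I factors lay at or below 0, and 5 of these fell. The summed level was 293, 311 and 304 CPM in IRF2_KO and 334, 319 and 327 CPM in Parental libraries, with no overlap. No test was run of the difference between these factors and the subunits.

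Ndufaf4, a factor that works early in complex I assembly, had 30.2, 29.6 and 29.7 CPM in IRF2_KO and 43.0, 35.3 and 34.9 CPM in Parental libraries. The groups did not overlap, and Parental library 1 stood above the rest. The fall was -0.34 on the log2 scale (SE 0.07, 95% interval -0.49 to -0.19, edgeR adjusted p = 0.000809), the lowest among the 92 genes. Ndufaf1, a factor of the membrane arm intermediate, had 20.5, 21.0 and 20.8 CPM in IRF2_KO and 28.0, 23.9 and 24.4 CPM in Parental libraries. Again all IRF2_KO values were lower, and Parental library 1 was the highest (log2 fold change -0.29, SE 0.07, edgeR adjusted p = 0.00177). Sdhaf1, which helps to insert iron-sulfur clusters into Sdhb, had 20.8, 22.3 and 20.6 CPM in IRF2_KO and 25.3, 23.4 and 26.6 CPM in Parental libraries. Its groups did not overlap (log2 fold change -0.24, SE 0.07, edgeR adjusted p = 0.00569).

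The other 3 assembly factors that fell were chosen after their values were seen. Ndufaf7, a methyltransferase that acts on complex I, had 24.1, 23.7 and 23.9 CPM in IRF2_KO and 27.4, 26.9 and 27.1 CPM in Parental libraries. The 2 groups were tight and apart (log2 fold change -0.19, SE 0.06, edgeR adjusted p = 0.0114). Ndufaf6 had 11.6, 11.9 and 13.9 CPM in IRF2_KO and 15.2, 14.9 and 14.5 CPM in Parental libraries, a change of -0.25 (SE 0.08, edgeR adjusted p = 0.0154) between groups that did not overlap, and it was not called without IRF2_KO library 1 (-0.19, edgeR adjusted p = 0.0658). Ndufaf2 had 15.8, 17.8 and 16.5 CPM in IRF2_KO and 20.7, 17.6 and 19.4 CPM in Parental libraries, and here the groups overlapped. Its change of -0.21 (SE 0.08, edgeR adjusted p = 0.0294) was not called by DESeq2 (adjusted p = 0.0546) or without IRF2_KO library 1 or 3 or Parental library 1 or 3 (edgeR adjusted p between 0.0709 and 0.128). Ndufaf2 and Ndufaf4 each overlap a predicted gene, so the counts of these may be mixed. Of the 6 that did not pass, Ndufaf3, Ndufaf5, Ndufaf8, Sdhaf2 and Sdhaf3 had overlapping groups, and Sdhaf4, which aids the flavin-bearing Sdha, had 15.6, 15.3 and 15.3 CPM in IRF2_KO and 14.4, 14.5 and 14.2 CPM in Parental libraries. All its IRF2_KO values were higher, but the difference missed the threshold (0.10, edgeR adjusted p = 0.229).

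Cox7a2l, whose protein takes part in supercomplexes of III and IV, rose. It had 74.4, 76.1 and 72.4 CPM in IRF2_KO and 68.5, 64.1 and 66.3 CPM in Parental libraries, with all IRF2_KO values higher. The log2 fold change was 0.16 (SE 0.05, edgeR adjusted p = 0.00809), and it missed the threshold without Parental library 2 (0.14, edgeR adjusted p = 0.0546). It shares 13.8% of its 50-base stretches with other loci.

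Genes of the same pathway outside these name families were counted in the same fit, and are to be read against the 47.2% of all genes tested that were called, 23.6% in each direction. The 45 listed assembly factors of other names gave 44 tested genes, of which 5 rose and 12 fell (38.6% called, under the share of all genes, median -0.05). Without IRF2_KO library 3 or Parental library 3 there were 5 lower, without Parental library 2 there were 8, and DESeq2 called 7 lower. Among the lower were Cox10, an enzyme of heme A synthesis (-0.28), and Uqcc1, a complex III factor (-0.24), and among the higher Cox17, a copper carrier (0.23), and Cox18, a membrane insertase (0.26). Cyc1, the complex III subunit cytochrome c1, fell: it had 253, 291 and 268 CPM in IRF2_KO and 281, 305 and 317 CPM in Parental libraries. The groups overlapped (log2 fold change -0.15, edgeR adjusted p = 0.0254). Cycs, for cytochrome c, was near 1 CPM and did not pass the test (log2 fold change -0.04, interval -0.53 to 0.45). Only uniquely aligned reads were counted, and stretches that Cycs shares with other loci were not examined, so its level is uncertain. Of the 13 mitochondrially encoded subunits, 8 were tested. ND3, ND4L, COX3, ATP6 and ATP8 were too low to test, with at most 13 counts in a library (ATP6). COX2, which was tested, had 0.208 to 0.418 CPM over the libraries. ND1 had 1322 to 1441 CPM in IRF2_KO and 1724 to 1993 CPM in Parental libraries. ND1 fell (-0.48, edgeR adjusted p = 1.01e-06), while COX1 (0.29, edgeR adjusted p = 0.000807) and ND6 (0.15, edgeR adjusted p = 0.0391) rose. Reads that also match nuclear copies of mitochondrial DNA are missing from counts of unique alignments, and their number was not examined. Levels and calls of the mitochondrially encoded genes are therefore uncertain.

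The mitochondrial ribosome, which makes the mitochondrially encoded subunits, had 40 of 78 members lower and 4 higher (56.4% called, median -0.14). Of all genes tested 47.2% were called, and 52.5% of those averaging 10 CPM or more, so the total is close to the background, while 23.6% and 28.4% were called lower. Mrpl16 had 88.4, 93.5 and 98.2 CPM in IRF2_KO and 119, 121 and 122 CPM in Parental libraries, groups far apart (log2 fold change -0.37, edgeR adjusted p = 4.64e-06). Mrps2 had 55.0, 57.7 and 57.8 CPM in IRF2_KO and 72.9, 72.8 and 71.5 CPM in Parental libraries, also without overlap (-0.35). Among the 4 higher were Mrpl24 (0.30, edgeR adjusted p = 2.9e-05) and Mrps9 (0.21, edgeR adjusted p = 0.00156). The higher members numbered 2 without IRF2_KO library 2 or 3 or Parental library 2, and the lower ones 32 to 40 over all libraries left out. Of 21 tested regulators of mitochondrial biogenesis, 10 fell and 1 rose (52.4% called, median -0.11). That is near the 47.2% of all genes tested, with 23.6% called lower. Without IRF2_KO library 3 there were 6 lower, and without Parental library 2 or 3 there were 5. The share of all genes called lower in those fits is not given here. The lower regulators were led by Mycn, a MYC family factor that is also a progenitor marker here (-4.23), and Pprc1, a coactivator (-0.42), with Gabpb2 higher (0.19). Nrf1, named after its values were seen, had 56.7, 57.5 and 54.7 CPM in IRF2_KO and 59.3, 62.6 and 62.8 CPM in Parental libraries, which did not overlap (log2 fold change -0.13, edgeR adjusted p = 0.0343). The tricarboxylic acid cycle list had 1 higher and 2 lower of 20 (15.0% called, median -0.03). The higher gene was Mpc2 (0.33), which encodes a pyruvate carrier subunit and not an enzyme of the cycle. The lower genes were Suclg1 (-0.21) and Idh3a (-0.15). The coenzyme Q synthesis list had 3 higher and 3 lower of 13 (46.2% called, near the 47.2% of all genes tested). Among the lower were Coq4 (-0.42) and Pdss1 (-0.38). Among the higher were Coq10a (0.26), which encodes a coenzyme Q-binding protein and not a synthesis enzyme, and Coq3 (0.23). These lists differ in level and size, and no test was run between them.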

How the data were processed

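RNA of 3 IRF2_KO and 3 Parental libraries was sequenced. Per the labels' protocols, a stranded total RNA kit was used, while the molecule label names polyadenylated RNA, and which applies was not settled. The submitters' processing notes name GSNAP and the build GRCm38; the version, the annotation and whether counting used strand are not given in the sources used. The deposited counts are, per the file headers, uniquely aligned reads per Entrez gene ID, and the deposited RPKM values are adjusted by a size factor by the authors.

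Symbols came from RefSeq for 31049 of 36528 IDs. Counts were tested in R 4.3.3 with edgeR 4.0.16: filterByExpr (13353 genes kept), TMM, robust quasi-likelihood F-test, two-sided, Benjamini-Hochberg over all genes, threshold 0.05. Intervals are 95% intervals from the standard error and the fit's degrees of freedom. The test was tested on simulated counts. Named genes are Irf2, up to 4 called subunits per direction and the highest and lowest level in complexes I, III, IV and V, all of complex II, all isoform pairs, up to 3 assembly factors per direction, and up to 2 genes per direction from each other list. Genes outside this rule are marked where they are named, and 1 member enters the counts but is not reported here by itself. The members and lists were chosen with earlier results of these data known. Stretches of 50 bases were compared across GENCODE M21 transcripts. Alternatives were other scalings, DESeq2 1.42.0, limma-voom (limma 3.58.1), other filters and thresholds, and each library left out in turn. Where a listed gene was too low to test it was left out of the counts of calls.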

Additional observations from a re-analysis of the deposited data

How the results depend on the processing

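No paired analysis was possible because the labels give no replicate numbers. No called change of a named member turned its direction under any alternative, while the complex I median changed sign without IRF2_KO library 1 (0.03). With glmTreat against 1.5-fold, 0 members were called higher or lower, which follows from the size of the changes, and 0 genes were called in complexes I, IV and V, the assembly factors, the other assembly factors and the mitochondrial ribosome; of the biogenesis regulators 0 were called higher and 1 lower. Library size alone moved the median of all genes to -0.04 on the log2 scale and gave 12 lower members, 4 lower in complex I, 1 lower in complex III, 0 higher and 1 lower in complex V, and 2 higher in the mitochondrial ribosome. Without a low-count filter, complex I had 3 lower, complex V 0 higher and the mitochondrial ribosome 2 higher. With an adjusted p under 0.01 there were 4 lower members, 3 lower assembly factors, 0 higher in complex V, 3 higher and 4 lower other assembly factors, 2 higher mitochondrial ribosome genes and 5 lower biogenesis regulators. DESeq2 called 7 other assembly factors lower.

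Leaving out each library in turn gave 3 to 10 higher members (3 without Parental library 2, 10 without IRF2_KO library 1) and 5 to 14 lower members (14 without IRF2_KO library 2), against 6 and 7 with all libraries. The counts ran from 2 to 5 higher and 1 to 7 lower in complex I, 0 to 1 higher in complex II, 0 to 1 lower in complex III, 1 to 2 higher in complex IV, 0 to 1 higher in complex V, 4 to 6 lower assembly factors, 5 to 13 lower other assembly factors (5 without IRF2_KO library 3 and without Parental library 3), 2 to 5 higher and 32 to 40 lower mitochondrial ribosome genes, and 5 to 10 lower biogenesis regulators (fewest without Parental library 2 or 3). The complex I median ran from -0.07 to 0.03. No share of all genes called without each library is given here, so the counts of calls have no background beside them. Apart from glmTreat and the threshold of 0.01, 8 of the 13 called members were called in every alternative: Ndufv3, Ndufb1, Ndufa8, Cox7a2, Ndufaf4, Ndufaf1, Ndufaf7 and Sdhaf1. The alternatives for the assembly factors, the mitochondrial ribosome and the biogenesis regulators were chosen after seeing the data. The cause of the other changes was not tested.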
